A study of Mus musculus with 9 samples.

Results

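CpG-poor tiles are stretches of the mouse genome in which the CpG dinucleotide, the main target of DNA methylation, is sparse. To define them, chromosomes 1–4 and 10–19 of mm9 were cut into consecutive tiles of 100 kb, and a tile was taken as CpG-poor when the *Dnmt3b* KO table listed at least 200 and fewer than 450 CpGs in it and at least 150 CpGs had 3 or more reads in every genotype. Chromosome 4 was measured only up to position 1.40866e+08, where the WT rows end. Of 16999 tiles with enough covered CpGs, 1989 (11.7%) met these limits. They span 198.9 Mb but hold only 5.54% of the CpGs used (738210). They were set beside 2546 CpG-rich tiles with 1200 or more listed CpGs, which make up 15.0% of the tiles and hold 26.2% of the CpGs. The choice used CpG counts and coverage but no methylation value.

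J1 is a line of mouse embryonic stem cells (ESCs) of the 129S4/SvJae strain, grown here on gelatin in serum with LIF. Whole genome bisulfite sequencing (WGBS) was carried out on wild type (WT) cells, on cells of genotype Dnmt3a-/- (*Dnmt3a* KO) and on cells of genotype Dnmt3b-/- (*Dnmt3b* KO), without treatment and with 3 libraries per genotype. In what follows, without DNMT3A and without DNMT3B stand for these KOs. The sources used here do not say how many clones stand behind a genotype. The authors merged the 3 libraries of each genotype into 1 table, so that every value below is 1 pooled value per genotype, there is no replicate error, and no difference between genotypes or between kinds of tiles could be tested across replicates.

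DNMT3A and DNMT3B are the methyltransferases that set new methylation, whereas DNMT1 copies existing methylation to the new DNA strand after replication. Most of the mammalian genome has lost CpGs, because methylated cytosine mutates readily to thymine, and CpGs remain dense mainly in CpG islands, many of which are promoters that stay free of methylation. Stretches poor in CpGs are mostly AT-rich and gene-poor, and much of such DNA lies at the nuclear lamina and replicates late. In ESCs they are methylated at most of their CpGs.

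To show what such sequence looks like, windows of 300 bases of the mm9 plus strand, each centred on a covered CpG, are given from 3 CpG-poor tiles, with every CG in capitals. The first comes from the tile whose CpG count was nearest to the median of the CpG-poor tiles (chr11:14249823-14250122). The other 2 come from the tiles with the largest loss of methylation without DNMT3A (chr15:48150095-48150394, in *Csmd3*) and without DNMT3B (chr2:86648970-86649269, between genes of an olfactory receptor cluster).
Tile of median CpG count: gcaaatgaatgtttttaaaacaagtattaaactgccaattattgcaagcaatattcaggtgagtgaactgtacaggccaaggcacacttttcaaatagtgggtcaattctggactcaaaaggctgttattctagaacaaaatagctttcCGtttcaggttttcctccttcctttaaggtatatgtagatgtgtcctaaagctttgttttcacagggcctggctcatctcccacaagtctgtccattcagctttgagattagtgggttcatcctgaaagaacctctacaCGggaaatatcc
Largest loss in Dnmt3a KO: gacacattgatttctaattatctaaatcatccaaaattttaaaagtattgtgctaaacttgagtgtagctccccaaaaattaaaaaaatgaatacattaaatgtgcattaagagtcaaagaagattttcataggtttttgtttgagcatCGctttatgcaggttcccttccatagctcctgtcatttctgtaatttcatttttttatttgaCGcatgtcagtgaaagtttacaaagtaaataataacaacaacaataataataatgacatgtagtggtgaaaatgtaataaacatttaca
Largest loss in Dnmt3b KO: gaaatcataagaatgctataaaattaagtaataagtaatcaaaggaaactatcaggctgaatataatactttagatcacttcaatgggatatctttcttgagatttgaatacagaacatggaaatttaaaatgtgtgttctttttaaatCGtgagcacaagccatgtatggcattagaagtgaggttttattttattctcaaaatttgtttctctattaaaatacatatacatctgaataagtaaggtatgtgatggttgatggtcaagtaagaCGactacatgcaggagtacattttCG
The first window holds 2 CpGs. It was centred on a CpG, so its density is not that of the tile, which lists 407 CpGs in 100 kb. At its central CpG, 18 of 18 reads were methylated in WT, 19 of 29 without DNMT3A and 14 of 16 without DNMT3B. At the central CpG of the *Csmd3* window the counts were 16 of 19, 10 of 26 and 10 of 18. In the olfactory receptor window the central CpG had 10 of 13 methylated reads in WT, 4 of 24 without DNMT3A and 2 of 15 without DNMT3B. Single CpGs thus rest on few reads, and further values are taken over many CpGs. Where shares of CpGs at a given level are printed, each CpG was classed by itself from 10 or more reads per genotype. Counting error of single CpGs therefore enters those shares.

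The median GC content was 37.1% in the CpG-poor and 47.3% in the CpG-rich tiles. Genes were sparse in CpG-poor tiles. Of the 1989 CpG-poor tiles, 1499 (75.4%) overlapped no protein-coding gene, 1772 (89.1%) held no transcription start site (TSS) and 1823 (91.7%) held no CpG island. Among CpG-rich tiles 17.4% held no TSS and 12.4% no CpG island. The CpG-poor tiles held 0.254 TSSs per tile, against 2.17 in the CpG-rich tiles. Many of them were neighbours, as 1401 tiles lay in runs of 2 or more adjacent CpG-poor tiles. The longest run had 21 tiles (chr1:100500001-102600000) and contained *Cntnap5b*, a neural cell adhesion gene, as its only protein-coding gene. A run of 19 tiles (chr1:116600001-118500000) likewise held only the related *Cntnap5a*.

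The label was checked against the reference sequence. By reference CpGs, 1405 of the 1989 tiles also hold fewer than 450, and the other 584 hold 450 or more and entered because part of their CpGs was not listed in the table. Less than 90% of the reference CpGs was listed in 467 tiles. These 467 had a lower median methylation in WT (82.8%) than the 1100 tiles with at least 95% listed and at least 95 kb of known sequence (88.9%). A further limit is that CpGs were counted per tile and not per known base. Less than 90 kb of sequence is known in 49 of the tiles, which had a median GC content of 41.0% and a median difference from WT of -7.15 points without DNMT3B. Where most of a tile is unknown, the label does not describe the density of the known part. As a check of the cell type, the 500 bp before and after the TSS of the pluripotency genes *Pou5f1*, *Sox2* and *Klf4* were methylated at 0.202%, 0% and 0.0718% in WT and at no more than 1.42% in either KO. The region around the TSS of the longest isoform of *Esrrb* was methylated, at 94.4% in WT, 24.2% without DNMT3A and 86.8% without DNMT3B. This check of the cell type is weak, as regions within 500 bp of a TSS averaged only 9.76% in CpG-rich tiles in WT. A stretch of 12 CpGs in *Dnmt3a* had no read without DNMT3A, and 30 CpGs in *Dnmt3b* had none without DNMT3B.

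CpG-poor tiles were highly methylated in WT ESCs and lost about 33 points of methylation without DNMT3A but about 9 points without DNMT3B. Median tile methylation was 87.8% in WT, 53.9% without DNMT3A and 78.01% without DNMT3B. The levels ran from 56.8 to 93.4% in WT, from 32.5 to 70.2% without DNMT3A and from 47.3 to 87.5% without DNMT3B. The ranges over tiles overlap, but within each tile both KOs were below WT, as they were in tiles of every other CpG count. The difference from WT had a median of -33.1 percentage points without DNMT3A (10th to 90th percentile of tiles -36.7 to -28.6) and of -8.99 without DNMT3B (-12.0 to -6.26). As a share of the WT level, 61.9% remained without DNMT3A and 89.6% without DNMT3B. When all reads of the CpG-poor tiles were pooled, 87.42% were methylated in WT (95% Wilson interval 87.40 to 87.43), 54.60% without DNMT3A (54.57 to 54.62) and 78.46% without DNMT3B (78.44 to 78.48). These intervals cover counting error only, and reads that span several CpGs are not independent.

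**Figure D1:**
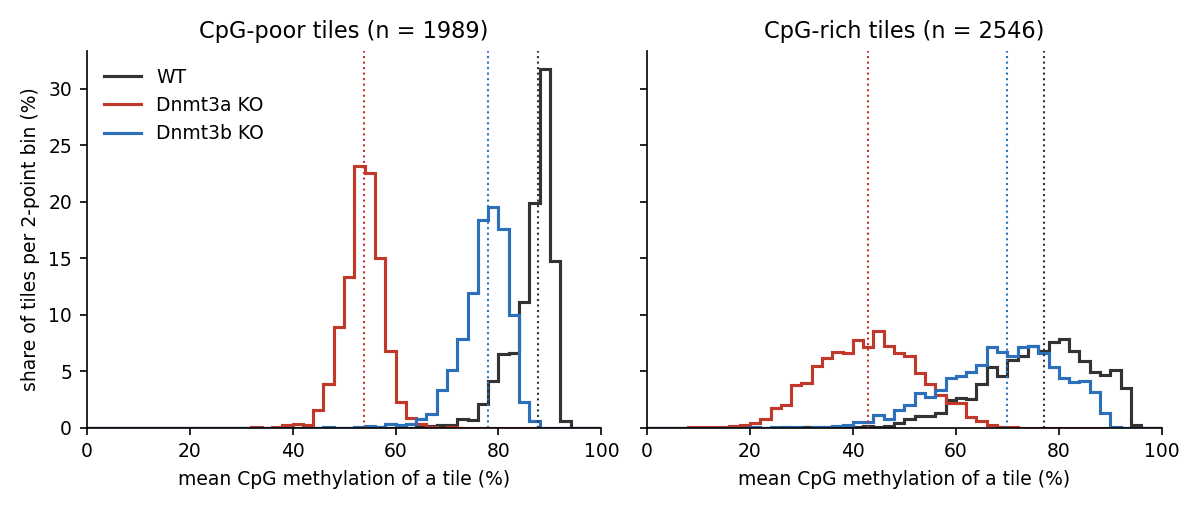
Distribution of mean CpG methylation over tiles, as the share of tiles (%) in bins of 2 percentage points, for 1989 CpG-poor (left) and 2546 CpG-rich tiles (right), by genotype; dotted lines are medians. The CpG-poor tiles form narrow peaks around 87.8, 53.9 and 78.01%, and the CpG-rich tiles spread widely around 77.1, 43.0 and 70.0%.

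The CpG-poor tiles resembled each other more closely than the CpG-rich tiles did. The SD over tiles was 4.23 percentage points in WT, 3.77 without DNMT3A and 4.60 without DNMT3B. In CpG-rich tiles the SD was 10.5, 9.66 and 11.1 percentage points. For the pooled read share of a CpG-poor tile, the median half-width of the Wilson interval was 0.726 percentage points in WT, 1.16 without DNMT3A and 0.942 without DNMT3B. The read share is not the tile mean to which the SD belongs, and they can differ. In the tile with the lowest WT level the mean was 56.8%, and the read share was 63.7% (Wilson interval 62.2 to 65.2). Adjacent CpG-poor tiles had like levels, with a Pearson correlation over 1000 adjacent pairs of 0.69 in WT, 0.52 without DNMT3A and 0.66 without DNMT3B. This is a description only, as adjacent tiles share libraries and base composition.

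In *Dnmt3a* KO ESCs, 1985 of 1989 CpG-poor tiles lay more than 20 percentage points below WT, where the share over all tiles was 99.9%. All 1989 were lower by more than 10 points, and all 1989 had a Wilson interval below that of WT, against 100% of all tiles in both cases. These counts therefore do not set the CpG-poor tiles apart. In *Dnmt3b* KO ESCs, 0 CpG-poor tiles were lower by more than 20 points, against 0.00588% of all tiles (1 of 16999). A loss of more than 10 points was seen in 669 CpG-poor tiles, or 33.6%, against 8.13% of all tiles. The Wilson interval was below that of WT in 1989 of 1989 CpG-poor tiles, against 100% of all tiles (16996 of 16999 before rounding). In neither KO was any of the 16999 tiles higher than WT, whatever its CpG count.

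Set beside the CpG-rich tiles, the CpG-poor tiles lost more methylation in *Dnmt3b* KO ESCs, and about as many points in *Dnmt3a* KO ESCs. Median methylation of the CpG-rich tiles was 77.1% in WT, 43.0% without DNMT3A and 70.0% without DNMT3B. Their median difference from WT in *Dnmt3b* KO ESCs was -6.74 percentage points, so that the median of the CpG-poor tiles lay lower by a gap of -2.25 points. This gap was -1.28 points when CpGs were weighted by reads and -2.55 points in fully listed tiles (at least 95% of the reference CpGs and 95 kb of known sequence). A loss of more than 10 points in *Dnmt3b* KO ESCs was seen in 3.496% of CpG-rich tiles, 0.858% of tiles with 750 to fewer than 1200 CpGs and 8.63% of tiles with 450 to fewer than 750 CpGs. In *Dnmt3a* KO ESCs the CpG-rich tiles differed from WT by -33.0 points, and the median of the CpG-poor tiles differed from theirs by -0.10 points. The sign of this small gap depended on the processing. It was 4.35 points, a smaller loss in CpG-poor tiles, when CpGs in CpG islands or within 500 bp of a TSS were left out, 1.49 points when CpGs were weighted by reads, and -1.02 points in fully listed tiles. As a share of WT the CpG-poor tiles kept more without DNMT3A (61.9% against 56.1%) and slightly less without DNMT3B (89.6% against 91.1%). CpG-poor tiles had fewer reads, with a median of 19.7 per CpG in WT against 24.7 in CpG-rich tiles, and the part of depth in these differences was not tested.

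Across the range of CpG counts from 200 upwards, the loss in *Dnmt3b* KO ESCs was smaller in the middle than towards either end. The median difference from WT was -8.60 points in the 35 tiles of 200 to fewer than 300 CpGs and -9.53 in tiles of 300 to fewer than 350. It was -8.78 in the 1152 tiles of 400 to fewer than 450, -6.11 in tiles of 850 to fewer than 950 and -8.03 in the 169 tiles with the most CpGs. The 3 measured tiles under 200 CpGs, with a median of -7.68 points, were left out of these bins. There was no step at the limit that defines the CpG-poor tiles. The 286 tiles within 10 CpGs below the limit had medians of 88.4% in WT, 54.5% without DNMT3A and 78.8% without DNMT3B. The 228 tiles within 10 CpGs above it had medians of 88.3%, 54.95% and 78.9%. Below 350 CpGs the WT level was lower, at 84.3% in 193 tiles.

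**Figure D2:**
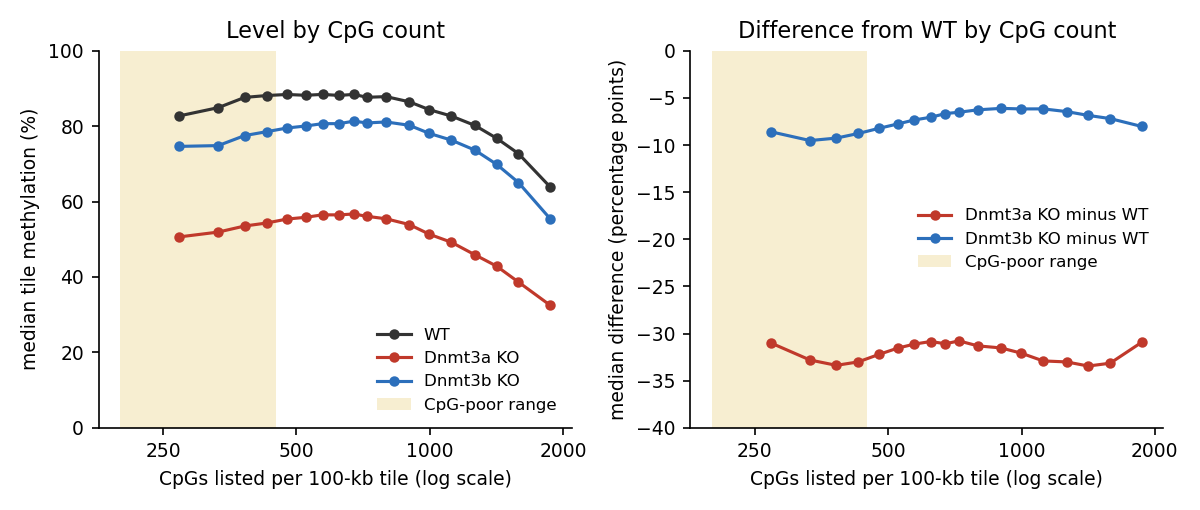
Median tile methylation (%, left) and median difference from WT (percentage points, right) against the number of CpGs listed per 100-kb tile on a log scale, in 18 bins; the shaded band is the CpG-poor range. In *Dnmt3b* KO ESCs the difference is -9.53 at 300 to fewer than 350 CpGs and -6.11 at 850 to fewer than 950, and in *Dnmt3a* KO ESCs it stays between -33.4 and -30.8 over all bins.

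The larger loss of CpG-poor tiles in *Dnmt3b* KO ESCs was found on every chromosome measured. The median differences of CpG-poor tiles from WT lay between -10.2 points on chromosome 16 and -8.07 on chromosome 11, and the gap to the CpG-rich tiles lay between -3.68 and -0.955 points, below 0 on 14 of 14 chromosomes. In *Dnmt3a* KO ESCs the gap lay between -1.73 and 1.29 points and was below 0 on 10 of 14. Median WT levels of the CpG-poor tiles were between 87.0 and 88.8% on all 14 chromosomes. The share of tiles that were CpG-poor differed more, from 4.47% on chromosome 19 to 17.99% on chromosomes 1 and 4. For chromosome 4 this is the share within its measured part. On chromosome 1, which had the smallest loss in *Dnmt3a* KO ESCs (-31.8 points), the reads per CpG in *Dnmt3a* KO were 1.07 times those in WT, against 0.875 to 0.952 times on the other chromosomes. The part of this depth in the smaller loss was not tested.

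**Figure D3:**
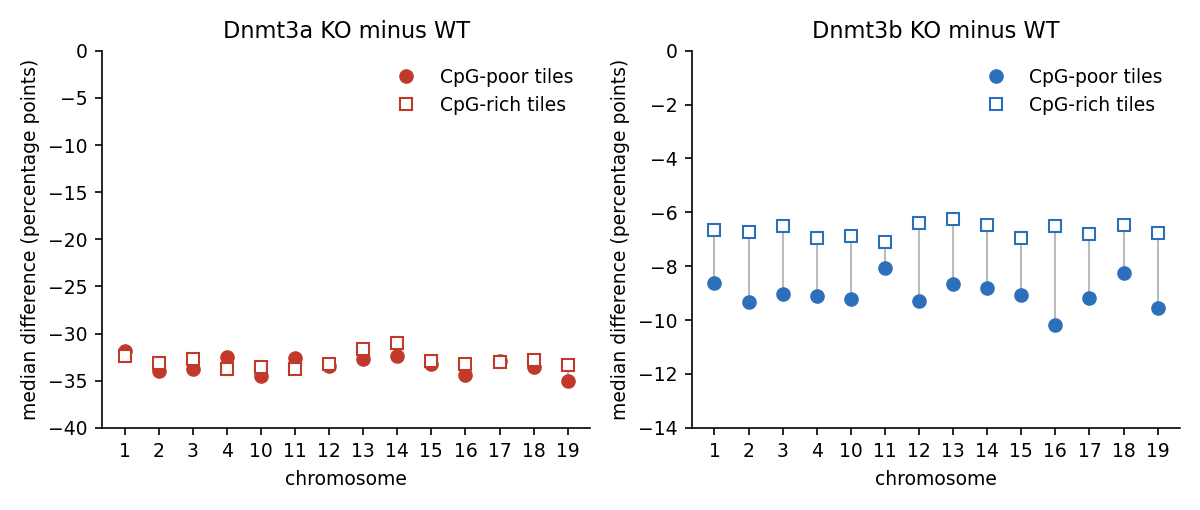
Median difference from WT (percentage points) of CpG-poor (filled circles) and CpG-rich tiles (open squares) on each of 14 chromosomes, for *Dnmt3a* KO (left) and *Dnmt3b* KO ESCs (right). In *Dnmt3b* KO ESCs the circles lie below the squares on 14 of 14 chromosomes, with gaps of -3.68 to -0.955 points, and in *Dnmt3a* KO ESCs on 10.

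The loss in both KOs was larger at CpGs that stand alone. Within CpG-poor tiles, CpGs with another CpG less than 10 bp away were methylated at 87.7% in WT, 61.4% without DNMT3A and 81.7% without DNMT3B. CpGs whose nearest neighbour was 400 to fewer than 800 bp away were at 85.5%, 48.6% and 73.7%. The difference from WT thus went from -26.3 to -36.9 points without DNMT3A and from -6.01 to -11.8 points without DNMT3B. At 800 bp or more, which holds 2716 CpGs, it was -37.2 and -12.7 points. CpGs with no neighbour within 100 bp made up 38.1% of the CpGs of the median CpG-poor tile and 7.52% of the median CpG-rich tile.

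The spacing of CpGs separated the kinds of tiles in different ways in the 2 KOs. In *Dnmt3b* KO ESCs the differences at less than 10 bp were close, -6.01 points in CpG-poor and -5.51 in CpG-rich tiles. WT levels at this spacing were unlike, at 87.7% in CpG-poor and 59.6% in CpG-rich tiles. As a share of WT, CpG-poor tiles kept more there without DNMT3B (93.2% against 90.8%). At 400 to fewer than 800 bp the differences were -11.8 points in CpG-poor and -8.01 in CpG-rich tiles. CpGs of this wider spacing thus lost more in CpG-poor tiles. The CpG-poor tiles had the larger loss in 6 of 7 classes of spacing below 800 bp, the exception being 10 to fewer than 20 bp (-7.11 against -7.17 points). In *Dnmt3a* KO ESCs they had the larger loss in 1 of 7, at less than 10 bp. As a share of WT, however, CpG-poor tiles kept more at that spacing (70.0% against 57.5%). At 20 to fewer than 50 bp the differences from WT were -32.2 points in CpG-poor and -37.5 points in CpG-rich tiles. When the CpG-poor values were weighted by the spacings of the CpG-rich tiles, the mean difference over these CpGs was -7.71 points in *Dnmt3b* KO ESCs (-6.99 in CpG-rich tiles) and -30.3 points in *Dnmt3a* KO ESCs (-33.1 in CpG-rich tiles).

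**Figure D4:**
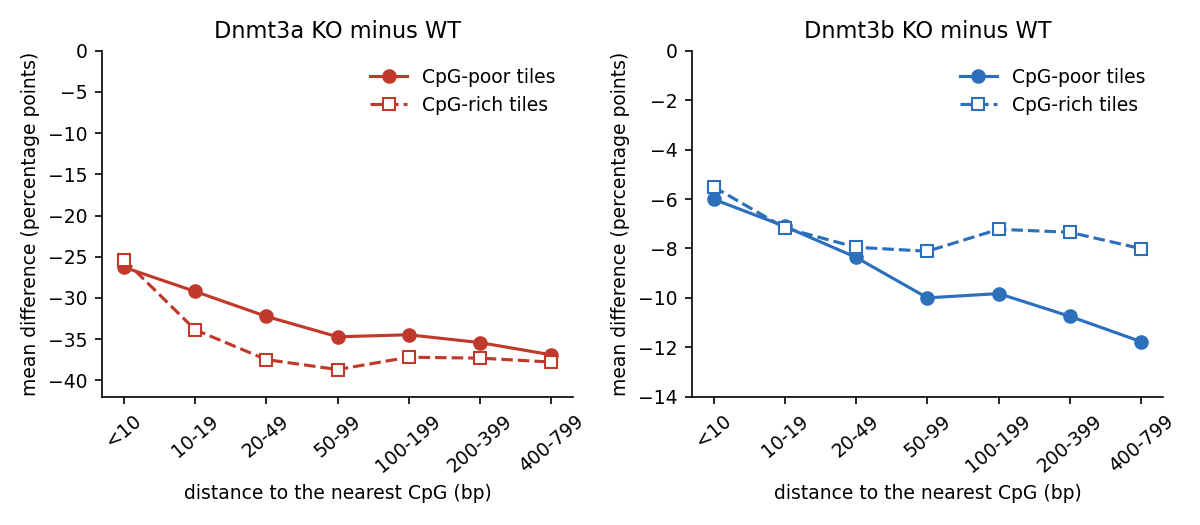
Mean difference from WT (percentage points) of CpGs grouped by the distance to the nearest CpG (bp), in CpG-poor (filled circles) and CpG-rich tiles (open squares), for *Dnmt3a* KO (left) and *Dnmt3b* KO ESCs (right, with a different vertical scale). For *Dnmt3b* KO the curves start together, at -6.01 and -5.51 points, and end at -11.8 in CpG-poor and -8.01 in CpG-rich tiles.

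The loss ranged more widely with the bases on either side of the CpG than with its spacing. Each strand was read 5′ to 3′ and contexts are written as the base before, CG and the base after, so that a context such as TCGA reads the same on both strands. Within CpG-poor tiles TCGA sites were methylated at 86.8% in WT, 55.9% without DNMT3A and 67.6% without DNMT3B. GCGC sites were at 88.7%, 56.6% and 85.8%. TCGA therefore had the largest loss of the 16 contexts in *Dnmt3b* KO ESCs (a difference of -19.2 points) and GCGC the smallest (-2.92). The next largest losses were at TCGT (-12.3 points) and ACGA (-11.9 points), which are the same sites read on opposite strands. The order was another one in *Dnmt3a* KO ESCs, where ACGT lost most, from 85.2% in WT to 44.3% (-40.9 points), and CCGG lost least, from 88.3% to 64.0% (-24.3 points).

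Read counts behind these contexts were large. In CpG-poor tiles the pooled share of methylated reads at TCGA was 86.3% in WT (95% Wilson interval 86.2 to 86.3, 1269493 reads) and 67.6% in *Dnmt3b* KO ESCs (67.5 to 67.6, 1197211 reads). At GCGC it was 88.5% in WT (88.4 to 88.6, 379349 reads) and 85.4% in *Dnmt3b* KO ESCs (85.2 to 85.5, 363183 reads). Among 46693 TCGA sites with 10 or more reads in all genotypes, 78.6% were methylated at 80% or more in WT, 15.4% without DNMT3A and 39.5% without DNMT3B. Among 14042 GCGC sites these shares were 86.9%, 21.7% and 81.0%. Without DNMT3B a level of 80% or more was thus seen at most GCGC sites and at fewer TCGA sites.

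TCGA sites were more frequent in CpG-poor tiles, with a median of 9.25% of the CpGs of a tile against 4.93% in CpG-rich tiles, and they also lost more there. The difference from WT in *Dnmt3b* KO ESCs was -19.2 points in CpG-poor and -13.3 points in CpG-rich tiles. Among CpGs with no other CpG within 100 bp it was -22.2 and -13.4 points. GCGC sites differed little between the tiles, by -2.92 points from WT in CpG-poor and -3.56 in CpG-rich tiles. The CpG-poor tiles had the larger loss in *Dnmt3b* KO ESCs in 12 of 16 contexts, and in *Dnmt3a* KO ESCs in 3 of 16. When the CpG-poor values were weighted by the context frequencies of the CpG-rich tiles, the mean difference over all contexts in *Dnmt3b* KO ESCs was -7.85 points, compared with -9.10 unweighted and -7.10 in CpG-rich tiles. Among CpGs with no other CpG within 100 bp the weighted difference was -9.31 points, compared with -10.4 unweighted and -7.27 in CpG-rich tiles. From tile to tile the relation was weak, with a Pearson correlation of -0.17 between the TCGA share and the difference from WT in *Dnmt3b* KO ESCs over 1989 CpG-poor tiles, which share libraries and base composition.

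Without DNMT3A most CpGs of the CpG-poor tiles were at intermediate methylation, whereas without DNMT3B most were still high. The same held in tiles with more CpGs. Among 505685 CpGs with 10 or more reads in all genotypes, 81.7% were at 80% or more in WT, 15.8% without DNMT3A and 61.6% without DNMT3B. Levels from 20% to under 80% were found at 16.9%, 75.6% and 35.8% of the CpGs. Levels under 20% were rare, at 1.38% in WT, 8.58% without DNMT3A and 2.64% without DNMT3B, against 11.1%, 25.7% and 13.8% in CpG-rich tiles.

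CpG islands inside CpG-poor tiles were more methylated in WT than those of tiles with more CpGs. The 3563 island CpGs in CpG-poor tiles averaged 61.7% in WT, 40.9% without DNMT3A and 45.4% without DNMT3B. In CpG-rich tiles, island CpGs were at 10.7%, 4.21% and 7.50%. The difference from WT in *Dnmt3b* KO ESCs was -16.3 points at islands of CpG-poor tiles, against -9.06 points outside islands in the same tiles. In *Dnmt3a* KO ESCs it was -20.9 points at islands and -33.0 points outside. As a share of WT, island CpGs kept 73.6% without DNMT3B in CpG-poor tiles and 70.3% in CpG-rich tiles. With 450 to fewer than 750 and 750 to fewer than 1200 CpGs they kept 74.3% and 74.4%. Outside islands, CpG-rich tiles were at 85.8% in WT, close to the 86.9% of CpG-poor tiles, and differed from WT by -37.3 points without DNMT3A and -7.60 points without DNMT3B.

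The regions within 500 bp of a TSS were also methylated in CpG-poor tiles, at 77.2% in WT, 45.1% without DNMT3A and 67.5% without DNMT3B over 3060 CpGs. In CpG-rich tiles they were at 9.76% in WT. Gene bodies and the DNA between genes had nearly the same levels in CpG-poor tiles. Introns were at 86.8% in WT, 52.7% without DNMT3A and 77.8% without DNMT3B, and CpGs outside genes at 86.9%, 54.1% and 77.8%. Exons were slightly higher, at 89.7%, 55.6% and 81.4%. The 219 tiles that lay wholly within genes differed from WT by -34.1 points without DNMT3A and -9.07 points without DNMT3B, and the 1499 tiles without a gene by -33.0 and -8.96 points.

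Many of the genes with TSSs in CpG-poor tiles were chemosensory receptors, which are expressed in sensory neurons of the nose. Of 689 olfactory receptor genes on these chromosomes, 258 (37.4%) had their TSS in a CpG-poor tile, compared with 505 of 14516 protein-coding genes in all (3.48%). The 61 tiles that held them had medians of 88.2% in WT, 54.0% without DNMT3A and 77.8% without DNMT3B, with a median difference from WT of -10.4 points in *Dnmt3b* KO ESCs. Of 96 vomeronasal receptor genes, which serve pheromone detection, 21 (21.9%) lay in 12 CpG-poor tiles, with medians of 87.5%, 49.5% and 74.6%. Both sets of tiles had a somewhat larger loss in *Dnmt3b* KO ESCs than the median CpG-poor tile. These genes lie in clusters of close copies, and the part of reads shared between copies was not tested. The other families counted are small, and the genes with a TSS in a CpG-poor tile were 1 of 15 cadherins, 0 of 9 non-clustered protocadherins, 0 of 18 beta-defensins, 0 of 11 ionotropic glutamate receptors, 2 of 11 *Skint* genes and 1 of 21 *Mup* genes. Only 5 of the 11 *Skint* genes had their TSS in a tile with enough covered CpGs.

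The genes whose bodies covered most CpG-poor tiles are long, as covering several tiles of 100 kb in full requires. Most of these genes are best known from neurons. *Csmd3*, a large membrane protein gene (chr15:47412184-48623535), covered 11 tiles in full, with means of 87.3% in WT, 50.7% without DNMT3A and 76.5% without DNMT3B. *Lrp1b*, a member of the low-density lipoprotein receptor family (chr2:40450768-42509118), also covered 11 tiles, with means of 86.3%, 52.9% and 78.7%. *Lrrc4c*, a synaptic adhesion gene (chr2:96158326-97471823), covered 9 tiles, with means of 86.6%, 51.0% and 75.6%. Their losses differed, since *Lrrc4c* differed from WT by -11.0 points and *Lrp1b* by -7.62 points in *Dnmt3b* KO ESCs. The contactin-associated genes *Cntnap5a* (8 tiles) and *Cntnap5b* (6 tiles), both on chromosome 1, had small losses, with differences of -30.9 and -31.4 points without DNMT3A and of -6.94 and -7.79 points without DNMT3B. *Grik2*, which encodes a kainate-type glutamate receptor subunit, covered 6 tiles and differed from WT by -36.64 points in *Dnmt3a* KO ESCs, the most of these genes and close to *Csmd3* (-36.60). *Agbl4* (7 tiles), which encodes a tubulin deglutamylase, *Dpp10* (6 tiles), an auxiliary subunit of potassium channels, and *Lingo2* (6 tiles), a leucine-rich repeat membrane protein, were between 86.6 and 89.2% in WT and differed from it by -10.1 to -10.6 points in *Dnmt3b* KO ESCs. *Erbb4*, a neuregulin receptor (chr1:68078760-69154633), stood lowest, with 6 tiles between 73.8 and 83.95% in WT and means of 80.3%, 48.9% and 71.5%.

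The 2 lowest WT levels lay in the immunoglobulin heavy chain locus. The tile at chr12:115000001-115100000, which holds 6 annotated immunoglobulin gene segments, was at 56.8% in WT, 32.5% without DNMT3A and 47.3% without DNMT3B, with 290 of its 429 reference CpGs listed. The second lowest (chr12:117000001-117100000), with *Ighv1-73*, was at 65.3%, 38.4% and 54.4%. The third lowest lay elsewhere (chr4:113700001-113800000) and holds no immunoglobulin segment. It was at 65.5%, 44.4% and 55.3%, with 401 of its 612 reference CpGs listed. All 17 CpG-poor tiles of chromosome 12 with immunoglobulin segments had a median of 70.6% in WT, 44.6% without DNMT3A and 60.0% without DNMT3B. Of the 41 CpG-poor tiles under 75% in WT, 15 were among these 17 and most were not. At the median 79.3% of the reference CpGs of these 17 were listed, against 96.1% over all CpG-poor tiles. The part of the missing CpGs in the low levels was not tested.

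The largest loss in *Dnmt3a* KO ESCs was in a tile within *Csmd3* (chr15:48100001-48200000), which was at 87.9% in WT, 45.0% without DNMT3A and 71.6% without DNMT3B. Its pooled read shares were 88.5% (Wilson interval 87.6 to 89.2), 44.7% (43.5 to 45.9) and 72.3% (71.2 to 73.4). It also had the second largest loss in *Dnmt3b* KO ESCs (-16.3 points). Next in *Dnmt3a* KO ESCs came a tile that overlaps *Pcdh10*, a protocadherin gene (chr3:45200001-45300000), at 90.03% in WT, 47.9% without DNMT3A and 82.3% without DNMT3B. That tile had an ordinary difference in *Dnmt3b* KO ESCs, -7.72 points. A tile in *Gphn*, which encodes the scaffold protein gephyrin, followed, and the tile with *Tlr5*, a flagellin receptor gene, came next (-41.2 points). It has 330 reference CpGs in only 20021 bases of known sequence, so that its known part is not poor in CpGs. The 5 smallest losses in *Dnmt3a* KO ESCs were in tiles without a protein-coding gene, as are 75.4% of all CpG-poor tiles. The smallest (chr4:113000001-113100000) was at 68.8% in WT and 51.5% in *Dnmt3a* KO ESCs, and 305 of its 589 reference CpGs were listed. Of these tiles, chr13:62000001-62100000 had 401 of 776 and chr13:61700001-61800000 had 358 of 649 reference CpGs listed. The tile chr16:98300001-98400000 had 19150 bases of known sequence. The tile with the highest level in *Dnmt3a* KO ESCs (chr4:60300001-60400000) was at 88.9% in WT, 70.2% without DNMT3A and 82.9% without DNMT3B, with 50000 bases of known sequence.

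The largest loss in *Dnmt3b* KO ESCs was in a tile with 4 olfactory receptor genes, *Olfr1093*, *Olfr141*, *Olfr1094* and *Olfr1095* (chr2:86600001-86700000). It was at 87.3% in WT, 49.7% without DNMT3A and 69.9% without DNMT3B, and its pooled read shares were 87.6% (Wilson interval 86.8 to 88.4), 51.8% (50.5 to 53.0) and 70.9% (69.8 to 72.0). Its difference from WT was -17.4 points in *Dnmt3b* KO ESCs. Another of the 5 tiles with the largest losses (chr17:19800001-19900000) was at 79.7% in WT and 63.7% in *Dnmt3b* KO ESCs (-16.0 points). It overlaps *Vmn2r102*, a vomeronasal receptor gene whose TSS lies in the neighbouring tile, where the difference was -9.62 points. The smallest loss (chr1:103700001-103800000, no protein-coding gene) was from 84.2% in WT to 80.9% in *Dnmt3b* KO ESCs (-3.34 points), and the next (chr11:121800001-121900000, with *Gm9631* and 43856 bases of known sequence) was from 70.0 to 66.6%.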

How the data were processed

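Bisulfite reads of 9 libraries, 3 per genotype, were aligned by the authors to mm9 with BSMAP, cleaned with BSeQC and counted per CpG with MOABS, with the libraries of a genotype merged. The deposited tables give counts of all and of methylated reads per CpG, not normalized. The authors also give their ratio as a fraction. WT rows were at hand for chromosomes 1 to 3 and 10 to 19 and for chromosome 4 up to position 1.40866e+08. They were not at hand for chromosomes 5 to 9 and X.

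Tile methylation was the mean ratio, in percent, of CpGs with at least 3 reads in all 3 genotypes. The listed CpGs averaged 35.0, 32.1 and 31.5 reads in WT, the *Dnmt3a* KO and the *Dnmt3b* KO. Wilson intervals are at 95%. Differences were taken per tile and summarised by medians, without tests. CpG islands were 500-bp windows, joined where they overlap, with a GC content from 55% and an observed-to-expected CpG ratio from 0.65, and genes were the longest protein-coding isoforms of GENCODE. CpGs with more than 500 reads in any genotype were left out of the reads summed for Wilson intervals, of reads per CpG of tiles and of values taken per strand (flanking bases and the comparison of strands). Tile means and the other spacing values keep them. The tile calculation was tested on simulated data. Python 3.11.15 with NumPy 2.4.6, pandas 2.3.3 and SciPy 1.17.1 was used, and matplotlib 3.10.9 for figures. The tiles, gene families and alternatives were chosen with earlier results of these data known. Named are the 10 genes covering the most CpG-poor tiles, tiles among the 5 at the end of each order, and the families counted.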

Additional observations from a re-analysis of the deposited data

How the results depend on the processing

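No paired analysis was possible because the libraries of each genotype were merged into 1 table, and for the same reason no library could be left out. The direction of the loss in CpG-poor tiles was the same in both KOs under all 10 alternatives, of which fully listed tiles were chosen after seeing the data. As none of the 16999 tiles was higher than WT in either KO, these alternatives could hardly have reversed the direction. A value is listed where it moved by more than its counting interval, which is narrow, and the cause was not tested. For the loss in *Dnmt3a* KO ESCs (-33.1 points) the values were -33.6 with at least 10 reads per CpG, -33.15 without CpG islands and TSSs, -33.2 with tiles shifted by 50 kb, -33.55 with CpGs counted in the reference, -33.23 for 200 to fewer than 400 CpGs, -33.3 without chromosome 1, -32.8 for the mean over tiles and -34.1 in fully listed tiles. For the loss in *Dnmt3b* KO ESCs (-8.99 points) they were -9.05 with at least 10 reads, -8.87 when weighted by reads, -9.04 with shifted tiles, -9.17 with reference CpGs, -9.31 for 200 to fewer than 400 CpGs, -9.06 without chromosome 1, -9.11 for the mean and -9.29 in fully listed tiles. The gap between CpG-poor and CpG-rich tiles in *Dnmt3a* KO ESCs (-0.10 points) changed sign to 0.93 with at least 10 reads, 1.49 when weighted by reads, 4.35 without CpG islands and TSSs and 0.31 for the mean. It was -0.59 with reference CpGs, -0.83 for 200 to fewer than 400 against 1500 or more CpGs, -0.27 without chromosome 1 and -1.02 in fully listed tiles. In *Dnmt3b* KO ESCs this gap (-2.25 points) stayed below 0, at -2.08 with at least 10 reads, -1.28 when weighted by reads, -1.64 without CpG islands and TSSs, -2.46 with reference CpGs, -1.91 for 200 to fewer than 400 against 1500 or more CpGs, -2.32 without chromosome 1, -2.18 for the mean and -2.55 in fully listed tiles. Leaving out CpGs with more than 500 reads moved none of the 4 values beyond its counting interval. At about 20 reads each, single CpGs are limited by depth.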

Other observations

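Some chromosomes were analysed in the KOs only. By the same CpG counts, chromosomes 5 to 9 hold 872 CpG-poor tiles, with medians of 53.0% without DNMT3A and 77.3% without DNMT3B, compared with 53.9% and 78.01% on the chromosomes shared with WT. The median difference between the KOs was -23.86 percentage points, and -23.85 on the shared chromosomes. Chromosome 8 stood lower without DNMT3B than the other 4, with a median of 74.2% over its 182 CpG-poor tiles, compared with 76.5 to 78.9% on chromosomes 5, 6, 7 and 9 and 76.8 to 79.1% on the shared chromosomes. Its median difference between the KOs was -21.9 points. Its CpG-rich tiles did not stand lower, at 71.8% without DNMT3B, compared with 61.8 to 71.1% in those of the other 4. The 1134 CpG-rich tiles of chromosomes 5 to 9 were at 41.8% and 68.9%. On chromosome X, 557 CpG-poor tiles were at 52.1% without DNMT3A and 79.4% without DNMT3B, with 16.0 and 10.4 reads per CpG. The KOs lay further apart on chromosome X, by -27.1 points. The unequal depth was not seen in the CpG-poor tiles of chromosomes 5 to 9, with 17.96 reads per CpG without DNMT3A and 18.19 without DNMT3B. It was seen in the 8 CpG-rich tiles of chromosome X, with 19.9 and 12.8 reads. Whether the KOs differ in copies of chromosome X was not tested, nor was the part of the unequal depth in the wider gap. WT was not analysed on these chromosomes, so that no loss can be given there.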
